A study of Mus musculus with 28 samples.

Results

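The genes described here were 9 genes of red blood cells, read from bulk RNAseq of mouse first molar tooth germs. They were chosen by name from the 52636 genes of the count table and comprised 3 embryonic globins (Hba-x, Hbb-y and Hbb-bh1), 4 adult globins (Hba-a1, Hba-a2, Hbb-bs and Hbb-bt), the heme synthesis gene Alas2 and the membrane transporter gene Slc4a1. The rule itself uses gene names alone. All 9 identifiers were found in the table.

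Each E13, E14 and E16 library was made from the total RNA of 1 dissected molar of a wild type C57BL/6JOlaHsd embryo. No allele or treatment differed between these groups. The study followed the molar from bud through cap to bell, in groups named E13, E14 and E16 whose labelled ages were E13.5, E14.5 and E16.5. The table of gene counts held 7 teeth per stage, from 7 embryos at E13, 6 at E14 and 5 at E16, so that some embryos gave both a left and a right tooth. A further table of estimated counts held the E13 and E16 teeth again together with 6 teeth labelled E15, and it listed 5 of the 9 genes. The paper does not describe the E15 teeth, so its statements on strain and dissection do not cover them. In comparisons with E15, stage cannot be told apart from other differences between the sets of libraries. Embryo numbers do not link teeth of different stages, and the 2 teeth of 1 embryo share an animal, so p-values over teeth treat as separate some teeth that are not.

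Hemoglobin joins alpha-like with beta-like globin chains, each holding a heme. The first red cells of the mouse embryo, the primitive cells of the yolk sac, carry the embryonic chains zeta (Hba-x), epsilon-y (Hbb-y) and beta-h1 (Hbb-bh1). Red cells made later in the fetal liver carry adult alpha chains, encoded by Hba-a1 and Hba-a2, and adult beta chains, encoded by Hbb-bs and Hbb-bt. They come to outnumber the primitive cells in the circulation during gestation. Counts of the adult genes, alpha or beta, do not by themselves show which kind of red cell they came from. A tooth germ makes no red cells of its own, so its globin transcripts are taken here to come with blood, a source that was not tested. In bulk tissue, fewer red cells and less RNA per red cell cannot be told apart. If the transcripts come with blood, the ratio of embryonic to adult globin within a tooth does not depend on how much blood it held.

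The embryonic and the adult genes of each cluster differ enough in sequence for short reads to separate them, but the adult genes do not differ enough from each other. The first 84 coding bases, the length of 1 read, show this for the beta-like genes, with capitals marking the bases that differ from Hbb-bs (GENCODE M21 transcripts on GRCm38).
Hbb-bs: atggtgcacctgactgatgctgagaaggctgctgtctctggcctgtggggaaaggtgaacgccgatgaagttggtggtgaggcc
Hbb-bt: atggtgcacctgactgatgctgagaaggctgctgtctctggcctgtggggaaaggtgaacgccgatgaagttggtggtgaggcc
Hbb-y: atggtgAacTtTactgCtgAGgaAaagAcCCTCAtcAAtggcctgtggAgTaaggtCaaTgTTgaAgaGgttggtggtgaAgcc
Hbb-bh1: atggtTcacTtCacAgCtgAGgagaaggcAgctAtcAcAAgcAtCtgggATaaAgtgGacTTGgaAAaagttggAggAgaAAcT

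Hbb-bs and Hbb-bt were identical over this stretch, Hbb-y differed from Hbb-bs at 24 bases and Hbb-bh1 at 28. Over the whole coding sequence of 441 bases, Hbb-bs and Hbb-bt differed at 1 base, whereas Hbb-y shared 74.4% of its bases with Hbb-bs. The same stretch of the alpha-like genes is given next because the alpha cluster repeats the pattern, with capitals marking differences from Hba-a1.
Hba-a1: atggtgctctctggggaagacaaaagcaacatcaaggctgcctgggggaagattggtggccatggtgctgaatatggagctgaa
Hba-a2: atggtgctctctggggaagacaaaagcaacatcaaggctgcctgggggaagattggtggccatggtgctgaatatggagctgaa
Hba-x: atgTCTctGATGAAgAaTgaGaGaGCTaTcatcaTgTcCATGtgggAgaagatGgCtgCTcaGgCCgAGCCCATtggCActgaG

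Hba-a1 and Hba-a2 were identical in these bases and differed at 1 of 426 coding bases, and Hba-x shared 61.7% with Hba-a1. Of all windows of 84 bases in the annotated transcripts, 100% were unique to their gene for Hba-x, Hbb-y, Hbb-bh1 and Slc4a1. The unique share was 49.1% for Hbb-bs, 44.0% for Hbb-bt, 33.7% for Hba-a1 and 17.2% for Hba-a2. How reads from the shared windows were counted is not given in the sources used here, so the split of counts between the adult genes of a pair is uncertain and the adult total may be too low at every stage. Alas2 had 90.5% unique windows, since its exons overlap those of Apex2 on the opposite strand, and whether the counting used strand is not stated.

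The beta-like genes lie in 1 cluster on chromosome 7, between Hbb-bt and Hbb-y, which move in opposite directions below. The 120 bases before the RefSeq start of Hbb-y and of the adult beta genes are therefore shown (GRCm38.p6, all on the minus strand, given 5′ to 3′), with the letters of the motifs searched in capitals. RefSeq promoters were matched for 7 of the 9 genes (not for Hbb-bh1 and Slc4a1), and the outermost starts of the GENCODE gene models lay upstream of the RefSeq starts.
Hbb-y, chr7:103853208-103853327: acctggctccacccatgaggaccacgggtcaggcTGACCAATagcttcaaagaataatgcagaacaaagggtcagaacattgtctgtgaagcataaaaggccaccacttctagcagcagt
Hbb-bs, chr7:103827929-103828048: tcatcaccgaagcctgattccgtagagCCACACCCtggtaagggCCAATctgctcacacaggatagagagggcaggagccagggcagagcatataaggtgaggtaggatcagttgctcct
Hbb-bt, chr7:103813924-103814043: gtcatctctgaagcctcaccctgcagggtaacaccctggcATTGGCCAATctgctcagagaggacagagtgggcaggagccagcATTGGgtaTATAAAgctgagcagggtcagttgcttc

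The motifs searched on both strands were the TATA box TATAAA, the CCAAT box CCAAT, the CACCC box CCACACCC, the motif TGACCA and, of GATA factors, the motif AGATAA. The CCAAT box was held by Hbb-y, Hbb-bs, Hbb-bt, Hba-a1 and Hba-a2, and by 21.3% of the 32851 RefSeq promoters in the same 120 bases. CCACACCC, the CACCC box of adult beta globin promoters, was held by Hbb-bs alone among the 7 and by 1.84% of all promoters. TGACCA was held by Hbb-y, where it overlaps the CCAAT box, and by Hba-x, against 5.56% of all promoters. TATAAA was held by Hba-x and Hbb-bt (6.34% of all promoters) and AGATAA by Alas2, in reverse (4.36%). These are matches of letters only.

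Total counts per tooth were 19187478 to 24109057 at E13, 23210069 to 25711785 at E14 and 17814073 to 27115729 at E16. All levels below are in CPM (the count of a gene scaled by the total count of its tooth) unless counts are named. In all, 19101 genes passed the filter on low counts and were compared between stages with edgeR's quasi-likelihood test, among them 8 of the 9 genes (all but Hbb-bh1). The right tooth of E16 embryo 7 and the left tooth of E16 embryo 3 stood apart from their stage in several of these genes. The left tooth of embryo 3 also did so in summed levels of other gene lists. Values with and without these teeth are given for most results that they bear on.

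The embryonic to adult globin ratio fell at every stage, and the 3 stages did not overlap. It was taken in each tooth as the counts of Hba-x, Hbb-y and Hbb-bh1 over those of Hba-a1, Hba-a2, Hbb-bs and Hbb-bt. At E13 the ratio was 8.71 in the right tooth of embryo 1, 9.25 in embryo 2 left, 7.72 in embryo 3 left, 13.48 in embryo 5 right, 8.31 in embryo 7 left, 10.3 in embryo 9 right and 11.3 in the left tooth of the embryo labelled X. At E14 it was 2.54 in embryo 1 right, 2.10 in embryo 2 right, 1.63 in embryo 3 right, 1.85 in embryo 5 right, 1.94 in embryo 6 right, 1.80 in embryo 6 left and 1.89 in embryo 8 left. At E16 it was 0.0299 in embryo 3 left, 0.0456 in embryo 5 left, 0.0298 in embryo 6 right, 0.0708 in embryo 6 left, 0.0201 in embryo 7 right, 0.0551 in embryo 8 right and 0.0935 in embryo 8 left. Embryonic globin thus made up the larger part of the counts in all E13 and E14 teeth and the smaller part in all E16 teeth.

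On the log2 scale the E13 teeth averaged 3.28 ± 0.28 (SD, n = 7), the E14 teeth 0.96 ± 0.20 and the E16 teeth −4.52 ± 0.78. This made the geometric mean ratio 4.98-fold lower at E14 than at E13, and 44.7-fold lower at E16 than at E14. No p is given for the ratio, since it is a summary over chosen genes. The difference was larger across the later interval, which is also the longer one. Expressed as a share, embryonic globin was 88.5% to 93.1% of all globin counts at E13, 62.0% to 71.7% at E14 and 1.97% to 8.55% at E16. The lowest share, in the right tooth of E16 embryo 7, had an exact 95% binomial (Clopper-Pearson) interval of 1.40% to 2.68%, which covers counting error only.

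The side of 1 on which the E14 teeth fell depended on how the shared sequence was handled. With each gene's count divided by its number of unique windows, the ratio was 3.23 to 5.85 at E13, 0.786 to 1.17 at E14 and 0.00788 to 0.0410 at E16. The stages still did not overlap, and the median E14 ratio was 0.861 rather than 1.89. The beta-like genes on their own gave 8.29 to 15.1 at E13, 1.62 to 2.59 at E14 and 0.0185 to 0.0900 at E16. The alpha-like genes gave 0.467 to 4.51 at E13 and 0.802 to 2.04 at E14, which overlapped. At E16 they gave 0.0270 to 0.316, below all earlier teeth. These beta and alpha ratios are from deposited counts. Unique windows number 853 for Hba-x but 245 for Hba-a1 and 100 for Hba-a2, so alpha ratios per unique window would be lower. The deposited alpha ratios therefore do not show on which side of 1 the E13 and E14 teeth fell.

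**Figure D1:**
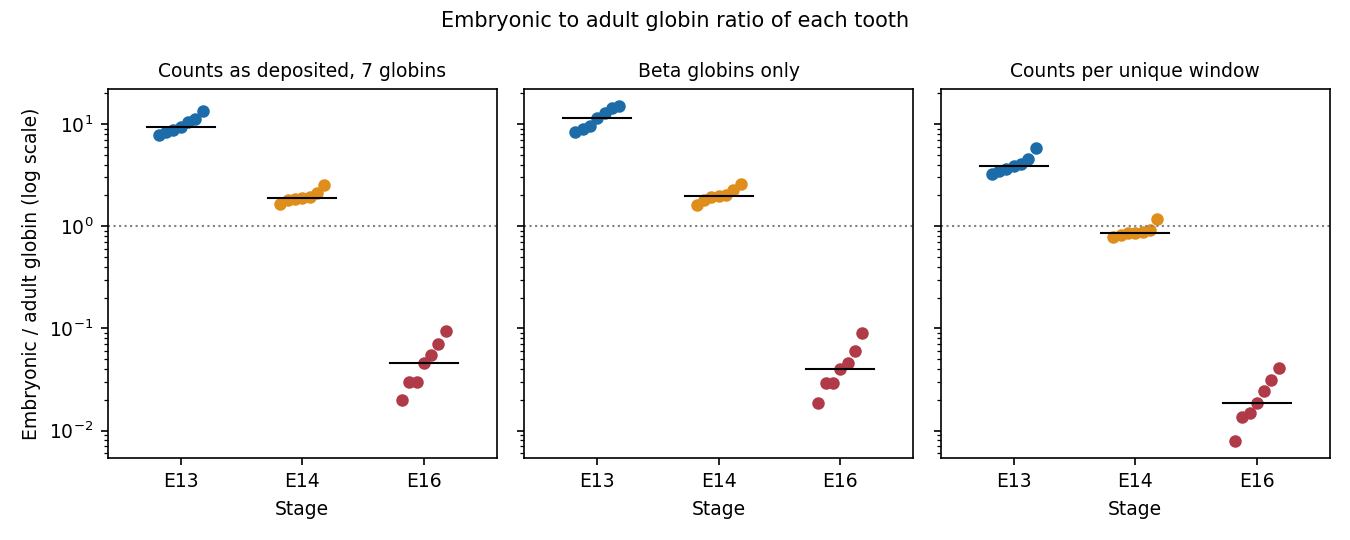
Embryonic to adult globin ratio (log scale) of each tooth by stage, 7 teeth per stage, from deposited counts of all 7 globins, from the beta-like genes and from counts per unique window. Points are teeth, black bars medians and the dotted line marks a ratio of 1. The stages do not overlap in any panel, with medians of 9.25, 1.89 and 0.0456 in the first.

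Left and right teeth of the same embryo could be compared in 3 embryos. In E14 embryo 6 the ratios differed 1.08-fold, from 1.80 on the left to 1.94 on the right. In E16 they differed 2.37-fold in embryo 6 and 1.70-fold in embryo 8, with the left tooth higher in both. These E16 ratios rest on few embryonic counts, 32 to 90 per tooth over the 7 teeth.

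Hbb-y, the main embryonic beta-like globin, carried most of the decrease. Its counts were 5030 to 9177 at E13 (median 5574), 1680 to 2618 at E14 (median 2507) and 26 to 70 at E16 (median 36). No stage overlapped another, and the levels were 209 to 395 CPM, 70.5 to 107 CPM and 1.01 to 2.66 CPM. Hbb-y fell by 1.54 on the log2 scale from E13 to E14 (SE 0.15, edgeR adjusted p = 6.16e-08) and by 5.76 from E14 to E16 (SE 0.19, edgeR adjusted p = 3.07e-16). From E13 to E16 it fell by 7.30 (SE 0.20, edgeR adjusted p = 3.79e-18), the lowest log2 fold change among the 19101 genes tested. Only 11 genes, 0.0576% of those tested, lay below −5 in that comparison. Its call and direction were the same under every alternative run.

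Hba-x, which encodes the embryonic alpha-like chain zeta, was present at far lower counts and fell mainly after E14. Its counts were 77 to 185 at E13 (median 116), 62 to 99 at E14 (median 93) and 1 to 19 at E16 (median 8). The E13 and E14 teeth overlapped, and every E16 tooth was below every earlier tooth. Hba-x fell by 3.29 on the log2 scale from E14 to E16 (SE 0.31, edgeR adjusted p = 1.32e-08) and by 3.98 from E13 to E16 (SE 0.31, edgeR adjusted p = 1.77e-10). From E13 to E14 its log2 fold change was −0.69 (SE 0.25) with an edgeR adjusted p of 0.0562. That call turned on single teeth, with an edgeR adjusted p of 0.0444 without E13 embryo 2 left, 0.0465 without E13 embryo X left, 0.0162 without E16 embryo 3 left, 0.0407 without E16 embryo 6 right and 0.0438 without E16 embryo 8 right, and the alternatives together spanned 0.0162 to 0.288.

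Hbb-bh1, the other embryonic beta-like globin, was near the limit of detection throughout. The 7 E13 teeth held 24 counts in all (0 to 9 per tooth), and 6 of the 7 had at least 1. At E14 only embryo 2 right had counts, 4 of them, and at E16 only embryo 8 right, with 1. Hbb-bh1 did not pass the filter on low counts and has no fold change here. For a tooth with no count, 3 counts is the limit a count of 0 allows.

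The adult beta globin Hbb-bt was the most abundant adult globin in every stage by median level, and it rose from E13 to E14. Its counts were 368 to 882 at E13 (median 512), 797 to 1499 at E14 (median 1071) and 593 to 1388 at E16 (median 798). All 3 stages overlapped in CPM, with 16.9 to 37.0 at E13, 33.4 to 60.6 at E14 and 23.0 to 54.4 at E16. Hbb-bt rose by 0.88 on the log2 scale from E13 to E14 (SE 0.18, edgeR adjusted p = 0.00104), and was 0.55 higher at E16 than at E13 (SE 0.18, edgeR adjusted p = 0.0164). Its log2 fold change from E14 to E16 was −0.33 (SE 0.18, edgeR adjusted p = 0.180). The decrease of the globin ratio after E14 thus came with a fall of Hbb-y and without a called change of Hbb-bt.

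Hbb-bs, the other adult beta globin gene, had the largest gain among these genes, but part of it rested on 1 tooth. Its counts were 2 to 49 at E13 (median 20), 41 to 119 at E14 (median 90) and 46 to 885 at E16 (median 89). The count of 885 was in embryo 7 right, where the other 6 E16 teeth held 46 to 162. Hbb-bs was 3.24 higher on the log2 scale at E16 than at E13 (SE 0.66, edgeR adjusted p = 0.000291). Without embryo 7 right the difference was 1.80 and kept its call (edgeR adjusted p = 0.000711, where the alternatives together spanned 6.45e-06 to 0.00186).

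The E14 teeth lay close to the other E16 teeth in Hbb-bs. Its log2 fold change from E14 to E16 was 1.52 (SE 0.59, edgeR adjusted p = 0.0559) and 0.07 without E16 embryo 7 right (edgeR adjusted p = 0.914). The call was gained on leaving out E16 embryo 3 left (edgeR adjusted p = 0.0302), embryo 5 left (0.0336), embryo 6 right (0.0472), embryo 6 left (0.0309) or embryo 8 left (0.0293), and the alternatives together spanned adjusted p values of 0.0293 to 0.985. From E13 to E14 the log2 fold change was 1.73 (SE 0.65, edgeR adjusted p = 0.0636). That comparison passed without E16 embryo 7 right (edgeR adjusted p = 0.00220) or E16 embryo 3 left (0.0446), teeth that enter it only through the shared estimate of spread, and the range over alternatives was 0.00120 to 0.118.

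The adult alpha globins Hba-a1 and Hba-a2 were low and were called in no comparison with all teeth. Hba-a1 had 10 to 34 counts at E13, 8 to 30 at E14 and 3 to 115 at E16. Hba-a2 had 31 to 146 counts at E13, 28 to 97 at E14 and 9 to 255 at E16. For both genes the stages overlapped and the highest E16 value was that of embryo 7 right. From E13 to E16 the log2 fold change was 0.48 (SE 0.58) for Hba-a1, with an edgeR adjusted p of 0.541. For Hba-a2 it was −0.03 (SE 0.52, edgeR adjusted p = 0.976), and −1.02 without E16 embryo 7 right, where it was called lower (edgeR adjusted p = 0.0465, where the alternatives together spanned 0.0465 to 1.0).

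**Figure D2:**
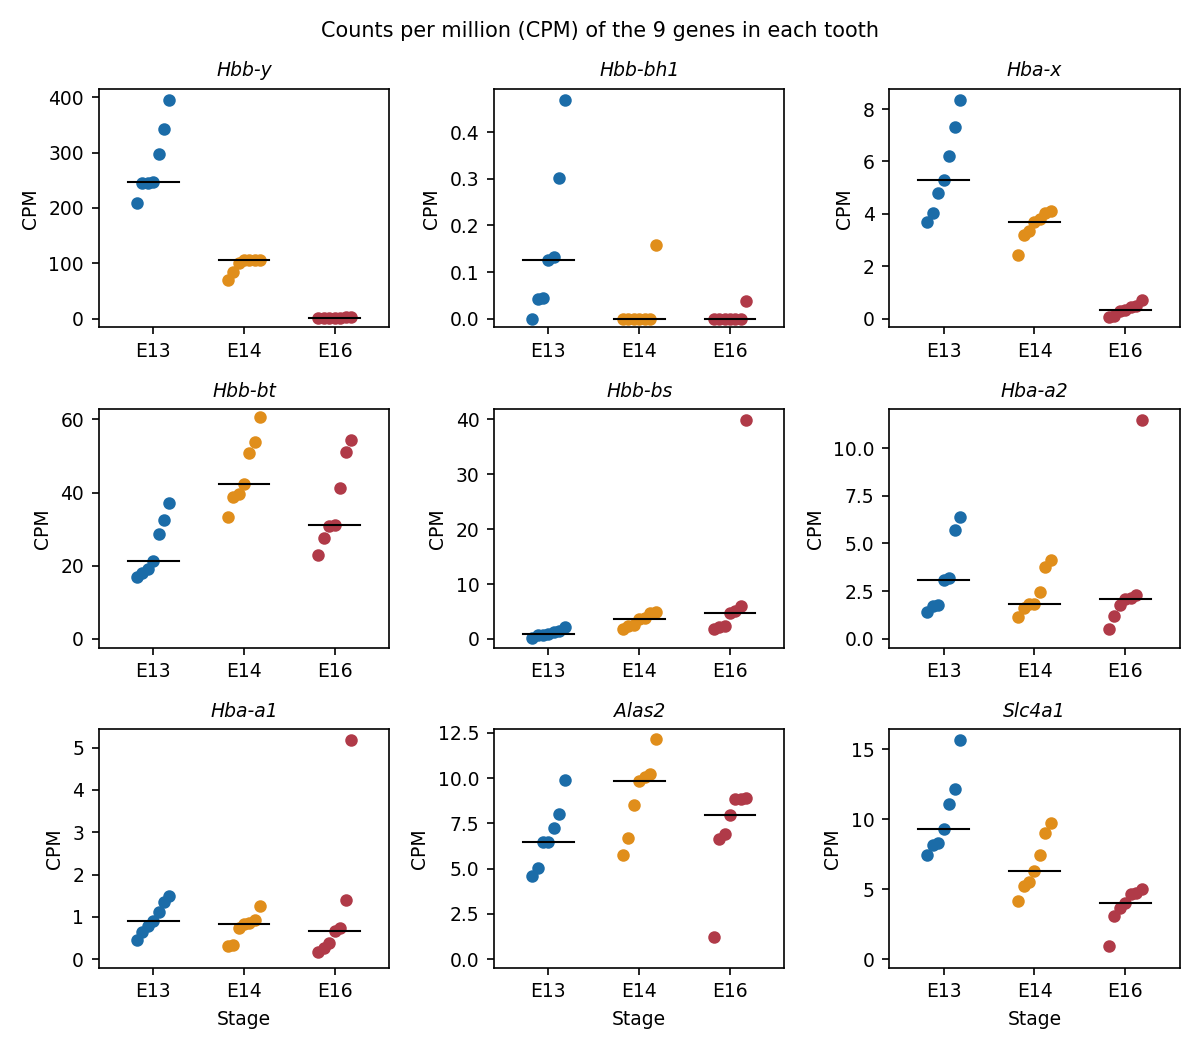
Level of each of the 9 genes in CPM (linear axes) by stage. Points are the 7 teeth of each stage and black bars their medians. Hbb-y falls from 209 to 395 CPM at E13 to 1.01 to 2.66 CPM at E16, and the single high E16 point of Hbb-bs, Hba-a2 and Hba-a1 is the right tooth of embryo 7.

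In the make-up of the globin counts, the share of Hbb-y fell from stage to stage and that of Hbb-bt rose. A share can rise because another falls, and the level of Hbb-bt had no called change from E14 to E16. Hbb-y was a median 88.9% of the globin counts at E13, 63.0% at E14 and 3.34% at E16. Hbb-bt was a median 7.41%, 29.9% and 80.6%. Hbb-bs was a median 0.331%, 2.24% and 8.08%, with 44.7% in E16 embryo 7 right. In that tooth the ratio of Hbb-bs to Hbb-bt was 1.29, whereas it did not exceed 0.117 in the other 20 teeth. Hbb-bt itself was within the range of the other E16 teeth there, at 686 counts.

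**Figure D3:**
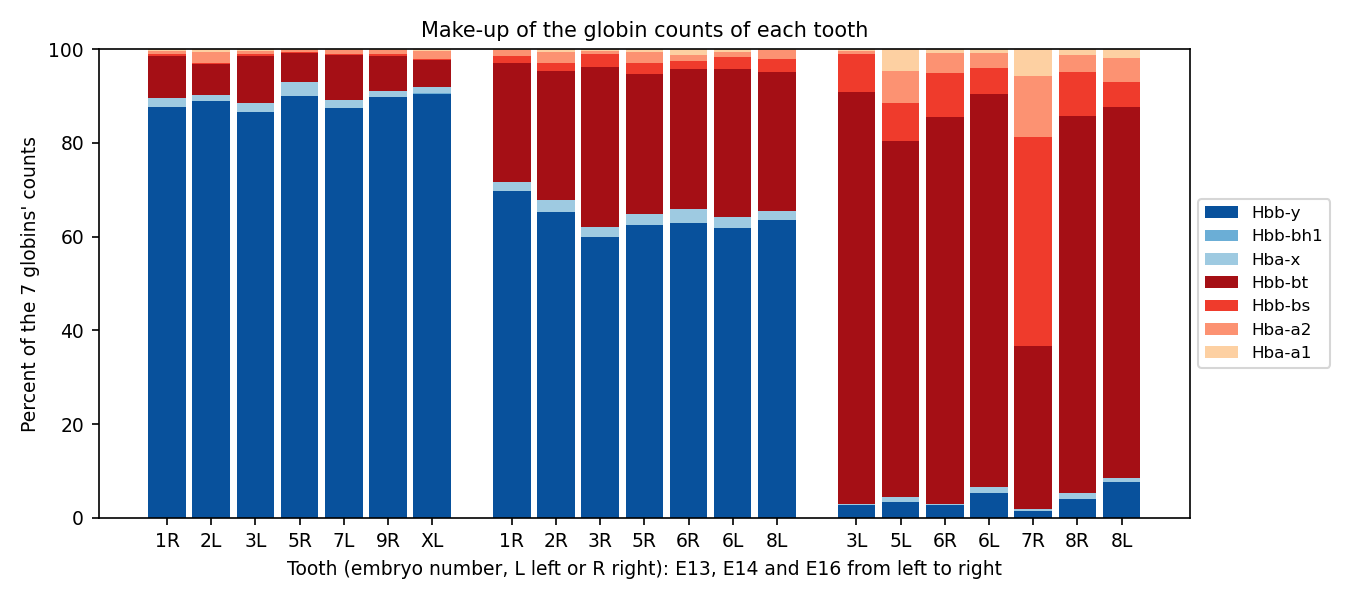
Percent of the counts of the 7 globin genes taken by each gene in each of the 21 teeth, stacked to 100, with embryonic genes in blue and adult genes in red and orange. Hbb-y takes 86.7% to 90.5% at E13, 59.8% to 69.7% at E14 and 1.46% to 7.61% at E16, and embryo 7 right is the E16 tooth in which Hbb-bs takes 44.7%.

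Levels of different genes can be compared only per length. In CPM per kilobase of exon, Hbb-y led at E13 (median 391) and E14 (167), each time ahead of Hbb-bt (30.2 and 60.3), without overlap of the teeth. Per unique window the order of Hbb-y and Hbb-bt at E14 was mixed, with a ratio of 0.867 to 1.37 within a tooth (median 1.05, above 1 in 5 of 7 teeth), against 4.29 to 7.71 at E13. In CPM per kilobase at E16, Hbb-bt led (44.3), ahead of Hbb-bs (6.25), with which it overlapped only through the 51.9 of embryo 7 right. Hba-a2 (3.13), Alas2 (3.30) and Hbb-y (2.75) followed at E16 with overlapping teeth. The adult alpha genes, for which fewest windows are unique, were low per kilobase at every stage. Their place per unique window was not computed, so the order of Hba-a2 after Hbb-bs is given per kilobase only.

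Total globin level decreased along with the ratio. The 7 globins together made 238 to 440 CPM at E13, 112 to 177 CPM at E14 and 30.2 to 89.2 CPM at E16, without overlap. The adult globins made 18.9 to 42.1 CPM, 38.1 to 67.3 CPM and 28.8 to 87.5 CPM, with overlap between all stages. The fall of the total was thus one of the embryonic genes.

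Alas2, the erythroid enzyme of the first step of heme synthesis, was called in no comparison. Its counts were 97 to 230 at E13 (median 148), 148 to 282 at E14 (median 237) and 22 to 228 at E16 (median 197). The stages overlapped, and the 22 counts of E16 embryo 3 left lay below all other teeth. Its log2 fold change was 0.40 from E13 to E14 (SE 0.28, edgeR adjusted p = 0.333), −0.33 from E14 to E16 (SE 0.28, edgeR adjusted p = 0.404) and 0.07 from E13 to E16 (SE 0.28, edgeR adjusted p = 0.865). Relative to Alas2 in the same tooth, Hbb-y held 30.8 to 58.9 counts per Alas2 count at E13, 8.78 to 14.7 at E14 and 0.127 to 1.41 at E16. The 1.41 was that of E16 embryo 3 left, and the other 6 E16 teeth held 0.127 to 0.372.

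Slc4a1, which encodes the anion exchanger band 3 of the red cell membrane, was called lower at E16, where Alas2 was not called. Its counts were 169 to 364 at E13 (median 200), 99 to 241 at E14 (median 154) and 16 to 126 at E16 (median 104). In CPM every E16 tooth (0.898 to 4.98) was below every E13 tooth (7.40 to 15.7), and E14 (4.15 to 9.75) overlapped both. Slc4a1 fell by 1.45 on the log2 scale from E13 to E16 (SE 0.26, edgeR adjusted p = 6.72e-05) and by 0.85 from E14 to E16 (SE 0.26, edgeR adjusted p = 0.0153). From E13 to E14 the log2 fold change was −0.60 (SE 0.25, edgeR adjusted p = 0.0920). Without E16 embryo 3 left this first step was called, at a log2 fold change of −0.61 (edgeR adjusted p = 0.00997), and the alternatives together spanned adjusted p values of 0.00997 to 0.586.

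The ratio of Slc4a1 to Alas2 within a tooth was 1.14 to 2.20 at E13, 0.544 to 0.992 at E14 and 0.350 to 0.727 at E16 (0.350 to 0.708 without embryo 3 left). The E13 teeth did not overlap with the later stages, whereas E14 and E16 overlapped, and the difference between the genes was not tested otherwise. In deviations from the stage means, Alas2 and Slc4a1 had a Pearson r of 0.867 over the 21 teeth. E16 embryo 3 left was far below its stage in both, with 22 counts of Alas2 (E16 median 197) and 16 of Slc4a1 (E16 median 104). The r was not computed without that tooth. E16 embryo 3 left, the tooth lowest in both genes, held 969 counts of Hbb-bt and 44.0 Hbb-bt counts per Alas2 count, where the median E16 tooth held 3.50.

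The calls over the 8 genes tested are set beside the share of all genes called in the same comparison. From E13 to E14, 1 gene was lower (Hbb-y) and 1 higher (Hbb-bt), where 19.7% of all genes tested were called (11.3% higher, 8.47% lower). From E14 to E16, 3 were lower (Hbb-y, Hba-x and Slc4a1) and 0 higher (Hbb-bs had an unadjusted p of 0.0163), against 28.1% of all genes (15% higher, 13.1% lower). From E13 to E16, 3 were lower (the same symbols) and 2 higher (Hbb-bs and Hbb-bt), against 41.3% of all genes (21.6% higher, 19.6% lower). Teeth of the compared stages did not overlap for 1, 2 and 3 of the 8 genes, against 9.67%, 10.4% and 17.5% of all genes. Each count of calls was within 2 genes of the number that the share of all genes gives for 8 genes. The comparisons share teeth, so their values stand side by side only.

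**Figure D4:**
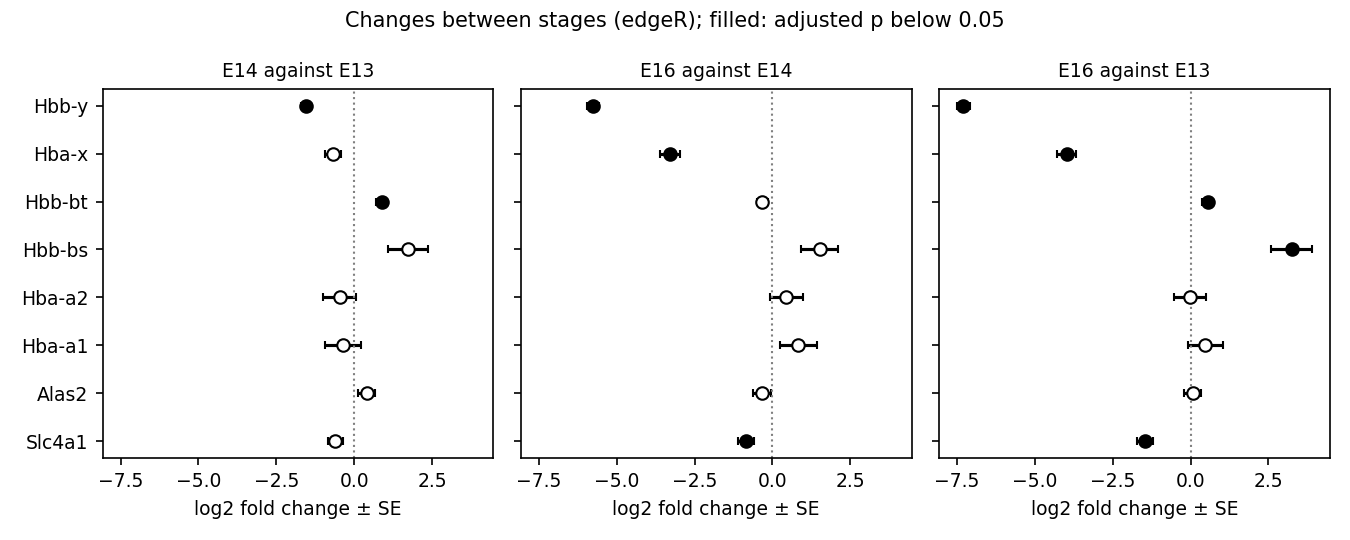
Log2 fold change ± SE (edgeR) of the 8 tested genes in the 3 stage comparisons, 7 teeth per stage. Filled points have an adjusted p below 0.05. Hbb-y lies at −1.54, −5.76 and −7.30 and is filled in all 3 panels, while Alas2, Hba-a1 and Hba-a2 are open in all 3.

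The E15 teeth lay between the E13 and the E16 teeth in Hbb-y without overlap, whereas in Hba-x they overlapped with E16. They are given by the table of estimated counts, which lists none of the 4 adult globins, so that no ratio can be formed at E15. For the E13 and E16 teeth that both tables shared by name, the estimated count of Hbb-y was 0.966 to 1.0 times the gene count.

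Hbb-y had 107 to 239 estimated counts in the 6 E15 teeth (median 179). These values lay below all E13 teeth (4990 to 9102) and above all E16 teeth (26 to 70), also in CPM. Hbb-y fell by 5.17 on the log2 scale from E13 to E15 (SE 0.23, edgeR adjusted p = 5.13e-13) and by 2.10 from E15 to E16 (SE 0.22, edgeR adjusted p = 1.34e-06). Hba-x had 12 to 73 estimated counts at E15 (median 20.5). Its E15 levels of 0.635 to 3.20 CPM were below all E13 teeth and overlapped with E16, where the highest tooth was embryo 8 right at 0.805 CPM. Hba-x fell by 2.06 from E13 to E15 (SE 0.41, edgeR adjusted p = 0.000554) and by 1.90 from E15 to E16 (SE 0.45, edgeR adjusted p = 0.00925). Hbb-bh1 had 0 estimated counts in all 6 E15 teeth.

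Of the 4 genes tested in this table, 2 were lower at E15 than at E13 and 2 lower at E16 than at E15, where 26.8% and 6.33% of its 13447 tested genes were called (8.49% and 2.69% lower). Alas2 had 70 to 324 estimated counts at E15 and was called in neither step (edgeR adjusted p = 0.247 and 0.583). Slc4a1 had 75 to 212 and a log2 fold change of −0.74 from E13 to E15 (edgeR adjusted p = 0.0629). This value passed without E15 embryo 3 left (edgeR adjusted p = 0.0247), E15 embryo 4 right (0.0457) or E16 embryo 3 left (0.0129), and the range over alternatives was 0.0129 to 0.146. From E15 to E16 its log2 fold change was −0.67 (edgeR adjusted p = 0.215).

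**Figure D5:**
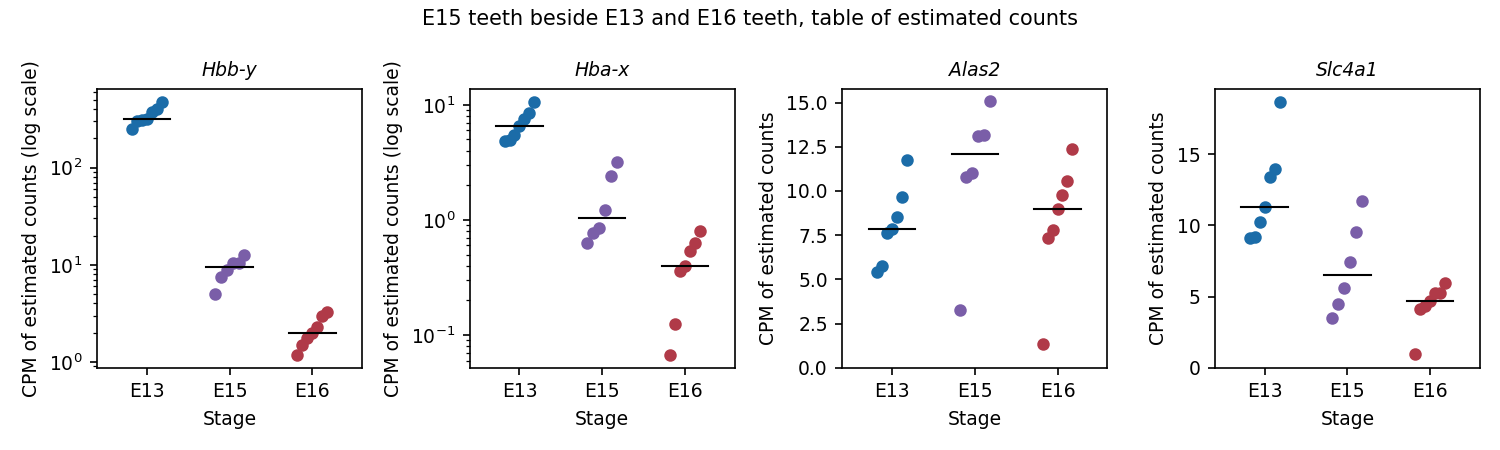
Level of Hbb-y, Hba-x (log axes), Alas2 and Slc4a1 (linear axes) in CPM of the estimated counts, in 7 E13, 6 E15 and 7 E16 teeth. Points are teeth and black bars medians. The E15 teeth of Hbb-y, at 4.98 to 12.6 CPM, lie between E13 and E16 without overlap.

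Among other genes of red cells, several membrane and skeleton genes were lower at E16 than at E13. Of 16 such genes 13 were tested (not Rhag, Icam4 and Cldn13), and from E13 to E16 8 fell and 1 rose, with a median log2 fold change of −0.44 against −0.01 for all genes, of which 19.6% fell and 21.6% rose. Without E13 embryo 7 left 5 of the 13 fell (17.1% of all genes), and without E16 embryo 3 left 6 fell (23.1%). Kel, a blood group metalloprotease, fell by 2.64 (SE 0.42, edgeR adjusted p = 1.41e-05). Tmod1, which caps the short actin filaments of the membrane skeleton, fell by 2.04 and Epb42, a partner of band 3, by 1.96. Counts of Kel, Tmod1 and Epb42 were low at E16, at 1 to 9, 2 to 14 and 1 to 10. At E13 Tmod1 had 4 to 84 counts (median 20), with the 84 in embryo 7 left. Its fold change without that tooth is not given here. Sptb, the beta chain of spectrin, rose by 2.28 (SE 0.18, edgeR adjusted p = 1.94e-10). From E13 to E14 2 rose and 1 fell, where 11.3% and 8.47% of all genes did, and from E14 to E16 1 rose and 2 fell, where 15% and 13.1% did. Without E16 embryo 3 left 3 rose and 4 fell from E13 to E14, where 16.7% and 13.8% of all genes then did. Many of these genes are also expressed outside red cells, and in a whole tooth the source cannot be told apart.

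The 17 genes of heme synthesis and iron handling were all tested. Between E13 and E16 3 rose and 3 fell (shares of all genes 21.6% and 19.6%), from E13 to E14 1 rose and 3 fell (11.3% and 8.47%), and from E14 to E16 1 rose and 1 fell (15% and 13.1%). Each count was within 2 genes of the number that these shares give for 17 genes. Without E16 embryo 3 left 6 rose from E13 to E16, 4 from E13 to E14 and 3 from E14 to E16. The shares of all genes that rose were then higher too, at 25.5%, 16.7% and 18.5%. Tfrc, the transferrin receptor that brings iron into the cell, rose by 0.80 from E13 to E16, Steap3, an endosomal iron reductase, by 1.14 and Fth1, the ferritin heavy chain, by 0.97. Abcb10, a mitochondrial transporter needed for heme synthesis, fell by 0.51.

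Of 18 transcription and RNA regulators known from red cell development or globin switching, 16 were tested (not Gata1 and Gfi1b). Between E13 and E16 4 rose and 5 fell (shares of all genes 21.6% and 19.6%), from E13 to E14 0 rose and 4 fell (11.3% and 8.47%), and from E14 to E16 5 rose and 5 fell (15% and 13.1%). Lin28b, an RNA-binding protein of fetal-type cells, fell by 2.01 from E13 to E16, and the RNA-binding proteins Igf2bp1 and Igf2bp3 by 1.68 and 0.72. Myb, a transcription factor of blood progenitors that also acts in other tissues, rose by 1.26. Gata1, the main erythroid transcription factor, had at most 12 counts in a tooth, and its median was 0 at E14. Klf1, the factor of adult beta globin genes, had 6 to 29 counts at E13, 8 to 33 at E14 and 10 to 36 at E16.

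Of 18 further red cell genes, 12 were tested (Ahsp was not matched by name, and others, such as Car1 and Hemgn, did not pass the filter). Between E13 and E16 3 rose and 1 fell (shares of all genes 21.6% and 19.6%), and from E13 to E14 3 rose and 0 fell (11.3% and 8.47%). From E14 to E16 2 rose and 0 fell (15% and 13.1%). Without E16 embryo 3 left 4 rose in that last step, where 18.5% of all genes then did. Car2, a carbonic anhydrase of red cells and other tissues, rose by 1.08 from E13 to E16, Cd24a, a surface glycoprotein, by 0.89 and Ube2l6, a ubiquitin-family conjugating enzyme, by 0.73. Ube2o, which tags proteins for removal in maturing red cells, fell by 0.49. The remaining globin genes of the 2 clusters, Hbb-bh2, Hbq1a and Hbq1b, and the pseudogene Hbb-bh0 were not tested. Together they made at most 1.31 CPM in a tooth. Hbb-bh0, annotated as an unprocessed pseudogene, had 0 to 20 counts at E13, 0 to 8 at E14 and 0 in all E16 teeth.

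Markers of blood and other cells moved with stage as well. The markers counted below as rising or falling were called so, where 21.6% of all genes rose and 19.6% fell from E13 to E16. The summed level of 8 red cell markers, 6 of them members described above, was 35.3 to 66.1 CPM at E13, 50.9 to 89.6 at E14 and 43.0 to 101 at E16. From E13 to E16 all 6 macrophage markers rose (summed 36.1 to 56.7 CPM against 82.8 to 136), as did 3 of 6 endothelial markers (243 to 339 against 213 to 504), 3 of 5 tested leukocyte and mast cell markers (4.56 to 9.44 against 16.2 to 30.7) and all 6 dental epithelium markers (604 to 866 against 1734 to 2603). Of the platelet and megakaryocyte markers 1 rose and 2 fell of 5 tested (5.85 to 14.2 against 10.7 to 18.8), of bone markers 2 rose of 5 (64.4 to 252 against 145 to 200), and of cartilage markers 2 rose and 2 fell of 4 (193 to 244 against 41.3 to 205). Of 6 dental mesenchyme markers 3 fell (2095 to 2391 against 928 to 1952) and of 6 skeletal muscle markers 4 fell (32.8 to 1266 against 26.1 to 156). The only markers with a median of 0 in a stage were Matn1 of cartilage and Mcpt4 of mast cells, so the tooth lineages were present in all stages. The lowest E16 values of dental mesenchyme (928), dental epithelium (1734), endothelium (213), macrophages (82.8) and cartilage (41.3) were those of embryo 3 left, and the other 6 E16 teeth had 1493 to 1952, 2198 to 2603, 367 to 504, 96.3 to 136 and 132 to 205 CPM. Without that tooth 5 of the 6 endothelial markers rose, where 25.5% of all genes then did. The 1266 CPM of skeletal muscle was 1 tooth, E13 embryo 7 left, where the other 6 E13 teeth had 32.8 to 202 and the medians were 38.5 at E13 and 44.2 at E16. Without it 2 of the 6 muscle markers fell, where 17.1% of all genes then did. The part of these cell types in the results was not tested.

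The genes most like Hbb-y in log2 CPM over the 21 teeth, among 14550 protein coding genes, were Hs6st2 (Pearson r 0.991), Prrx1 (0.987), Nr2f1 (0.983), Gpc6 (0.981) and Igf2bp1 (0.975). For Hbb-bs they were Fam114a1 (0.837), Lrrfip1 (0.800), Fcgr3 (0.794), Myct1 (0.793) and Serinc3 (0.790). Teeth share their stage, so any gene that changes with stage can score high. In deviations from stage means the genes most like Hbb-bs were Fam114a1 (0.672), Rgs7bp (0.666), Pnpla7 (0.635), Fuca2 (0.624) and Ldah (0.611). Without E16 embryo 7 right the leading genes were others, with Dlg1 (0.894) first in log2 CPM and Fgf12 (0.750) in deviations.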

How the data were processed

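As the paper describes for E13, E14 and E16, tooth germs were dissected singly and RNA libraries were made with the Ovation Mouse RNAseq system. The authors trimmed 84-base reads, aligned them with STAR to GRCm38 and counted reads per gene with HTSeq, and these raw counts were deposited without normalization. The deposited table with E15 holds estimated counts from Salmon (0.99.0 in the submitters' processing notes), as whole numbers. Its genes are a subset of 14185.

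Identifiers were matched to GENCODE M21 (52403 of 52636). Counts and estimated counts were each fitted with edgeR 4.0.16 in R 4.3.3 (TMM, filterByExpr, quasi-likelihood test, all stages of a table in 1 fit, no covariate, Benjamini-Hochberg adjusted p below 0.05). CPM used the column totals, and likeness used a prior count of 2. Ratios, sequence windows and plots were made in Python 3.11.15. The scripts were tested on simulated counts.

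The 9 genes and all gene lists (heme and iron, membrane and skeleton, transcription factors, other red cell genes, other globins, cell markers) were chosen with earlier results of these data known. Of each list, the 4 called genes with the largest change between E16 and E13 are named, and of genes like Hbb-y or Hbb-bs the first 5. Single genes named for their counts (Gata1, Klf1), the first genes without 1 tooth, and the teeth named apart were chosen after their values were seen. The column of E13 embryo X carries no embryo number and was used by its stage. Alternatives were DESeq2 1.42.0, other filters, side, an embryo block, summed teeth and leaving out each tooth. No pair of libraries of a stage was a duplicate (chi-square per degree of freedom at least 7.21). The precision of each value is limited by counting and by 6 or 7 teeth per stage.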

Additional observations from a re-analysis of the deposited data

Results flagged for a closer look

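Values far from the other teeth of their stage by Dixon's criterion were found in 7 of 34 groups of teeth tested. The criterion's rate of about 1 group in 20 holds for independent normal values, so the 7 are not set against it. Several flags share 1 tooth, and where all other teeth have 0, as for Hbb-bh1, any count is flagged. In the right tooth of E16 embryo 7, Hbb-bs was 39.9 CPM (5.97 in the next tooth), Hba-a2 was 11.5 CPM (2.32) and Hba-a1 was 5.18 CPM (1.39). In the left tooth of E16 embryo 3, Alas2 was lowest at 1.23 CPM (6.62 in the next tooth). In the estimated counts, Alas2 was lowest at 3.25 CPM in the left tooth of E15 embryo 8 (10.8 in the next). Hbb-bh1 was 0.158 CPM in the right tooth of E14 embryo 2 and 0.0369 CPM in the right tooth of E16 embryo 8, where all other teeth of those stages had 0; these are 4 counts and 1 count.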

How the results depend on the processing

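Hbb-y kept its direction and call in all 3 comparisons under all 29, 29 and 30 alternatives, as did Hba-x in the comparisons with E16. DESeq2 called 2 of the 9 genes higher and 2 lower from E13 to E14, and side as a factor or summing the teeth of an embryo called 2 lower. Except where a share is printed, counts of calls in this section stand without the share of all genes called in their setting. They are therefore not a result about the 9 genes, of which 8 were tested in the main fit. Without E16 embryo 3 left 2 of the 9 were higher and 3 lower from E13 to E14, where 16.7% and 13.8% of all genes then were. Keeping all genes with any count, or summing teeth, called 1 higher from E14 to E16. With the embryo number as replicate block, 1677 genes were called from E13 to E14 (3767 without it) and 5210 from E13 to E16 (7887), with 2 and 1 of the 9 genes higher; Slc4a1 from E14 to E16 had an adjusted p of 0.0522 and Hbb-bt from E13 to E16 of 0.0767, and Hba-a2 turned to 0.30, −0.14 and 0.16 in the 3 comparisons and Hba-a1 to 0.11 from E13 to E14. The pairing has no basis in the design: same-numbered teeth of different stages correlated between −0.30 and 0.49 (median 0.13), 8 of 15 above 0.1. Summing teeth turned Hba-a2 to 0.21 from E13 to E16. In the table of estimated counts 4889 genes were called from E13 to E16 and 0 of the 9 genes higher, since the adult globins are not listed. The ratio of alpha-like genes alone differed by −0.30, −3.58 and −3.87 on the log2 scale.

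Without the left tooth of E16 embryo 3 and the right tooth of E16 embryo 7 together (chosen after seeing the data), 5712 genes were called from E13 to E14, with 2 of the 9 higher and 3 lower; Hba-a2 and Hba-a1 turned to −0.36 and −0.15 from E14 to E16 and Hba-a1 to −0.51 from E13 to E16. Leaving out single teeth gave 3077 to 5855 genes from E13 to E14 (the highest without E16 embryo 3 left), with 1 to 2 of the 9 higher and 1 to 3 lower, 0 to 1 higher from E14 to E16, and 671 to 1382 genes from E15 to E16 (851 with all teeth, 1382 without E16 embryo 3 left). Over single teeth left out, Hba-a2 ranged from −0.55 to 0.65 and Hba-a1 from −0.34 to 1.05 from E14 to E16, and Hba-a2 from −1.02 to 0.24, Hba-a1 from −0.70 to 0.69 and Alas2 from −0.039 to 0.27 from E13 to E16. Beyond those given here, the causes were not tested. The ratio in the table of estimated counts was not run. Counts of Hbb-bh1, and the adult alpha genes with few unique windows, set the limit of depth.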
